A study of Mus musculus with 6 samples.

Results

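The comparison sets tissue labelled frontal cortex from a mouse lacking Apoer2, the apolipoprotein E receptor encoded by Lrp8, against that of a wild-type mouse. It holds 2 of the 6 microarrays of a series on reeler mouse models, the array labelled APOER2 KO and the array labelled Wild type, and covers 33586 autosomal probe sets of the 45101 on the array. The 11 probe sets of pituitary hormone genes were set aside. Values are MAS5 signals, a probe set's brightness scaled by array, and differences are log2(signal + 28), Apoer2 KO minus WT. After a filter at a mean signal of 89 over the 6 arrays, 19220 autosomal probe sets and 11071 of 17395 autosomal genes were kept. Each gene is represented by its brightest probe set.

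Apoer2 is a transmembrane receptor of the LDL receptor family that binds the secreted protein reelin, together with its relative Vldlr. Binding leads to phosphorylation of the adaptor Dab1, and in the developing cortex this pathway sets the positions of migrating neurons. In the mature brain Apoer2 sits at synapses, where it associates with NMDA receptors, and it also takes up selenoprotein P and binds apolipoprotein E.

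The Apoer2 KO and WT mice came, with a VLDLR KO and an APOER2-VLDLR KO mouse (the double KO), from mating mice heterozygous for both receptor mutations. A DAB1 KO and a REELIN KO mouse came from separate matings of heterozygotes. All were labelled as untreated males aged 21 days on a mixture of C57BL/6 and 129, and RNA came from 1 microdissected frontal cortical lobe per array. The labels state that mutants were recognised by a reeler phenotype, but not which exons any mutation removes. With 1 array per genotype there is no replicate error, so no difference below was tested and a fold says only that 2 arrays differed. In dissected tissue, fewer cells of a type and less RNA per cell cannot be told apart.

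The deleted gene itself was the lowest of all kept genes. The brightest Lrp8 probe set read 4.2 on the Apoer2 KO array, against 357.8 on the WT array. It read 13.7 on the double KO array and 379.8 on the Vldlr KO array, and the Dab1 KO and Reln KO arrays read 370.1 and 342.4. Both arrays labelled as lacking Apoer2 were thus below background, which was taken as the brightest of 27 bacterial control probe sets and was 28.4 on the Apoer2 KO array and 35.2 on the WT array. The Apoer2 KO signal was at least 12.6-fold lower, with a log2 difference of -3.58. A further Lrp8 probe set read 7.0 on the Apoer2 KO array against 304.8 on the WT array, at least 10.7-fold lower. The third read 56.4 against 91.3, a log2 difference of -0.50, and was below the signal filter. It read 57.3 on the double KO array, and 89.6, 109.1 and 127.7 on the Vldlr KO, Dab1 KO and Reln KO arrays. Both arrays lacking Apoer2 were thus the lowest here too, by a smaller margin. As the removed exons are not given, this probe set may lie outside them, and such a probe set would not check the deletion.

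The other named components of the receptor pathway read close to WT. Vldlr, the second reelin receptor, read 491.7 on the Apoer2 KO array and 551.6 on the WT array, and its 6 probe sets differed by -0.24 to 0.00 log2. Reln, the ligand, read 1819.7 against 1669.0. Dab1, the intracellular adaptor, read 573.1 against 576.2 on its brightest probe set, while another Dab1 probe set read 233.0 against 361.8, a log2 difference of -0.58. Of 36 kept genes in a list of the reelin pathway, 19 were above 0 and 17 below (51.4% and 48.5% of all kept genes), with a median difference of 0.01, beside 0.0059 over all kept genes. Apart from Lrp8, the furthest member was Adamts4, a secreted protease able to cleave reelin, which read 215.2 on the Apoer2 KO array and 448.4 on the WT array, a log2 difference of -0.97. Its signals on the Vldlr KO, double KO, Dab1 KO and Reln KO arrays were 518.4, 412.4, 333.9 and 202.0, so the low reading was shared with the Reln KO array. The highest members were Rapgef1, a Rap1 exchange factor downstream of Dab1, at 0.32, and Cdk5, a kinase of migrating neurons, at 0.30. With the mean over all probe sets of a gene, the differences were smaller: -0.50 for Adamts4, 0.06 for Rapgef1 and 0.13 for Cdk5.

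Several signals outside the comparison set the Apoer2 KO array apart and stand beside every result below. Growth hormone (Gh) read 3704.8 on it, against 20.4 on the WT array and at most 32.4 on any other array. Prolactin (Prl) read 192.6 against 43.0, the glycoprotein hormone alpha subunit (Cga) 109.5 against 8.6, and Pomc 341.3 against 153.5. By contrast Lhb read 111.0 against 92.6, Tshb 38.6 against 57.5 and Fshb 3.1 against 2.3, and 9 kept genes of a further list of pituitary genes had a median difference of 0.08. The Y-linked gene Eif2s3y read 367.5 on the Apoer2 KO array and 7.1 on the WT array, Uty 140.3 against 41.5 and Kdm5d 104.3 against 30.6. Xist, made from the inactive X chromosome, read 124.9 on the Apoer2 KO array, against 3498.1 on the WT array and 3367.6 to 4006.0 on all others, although every animal is labelled male. Loss of Apoer2 and this difference in X and Y signals cannot be told apart on these 2 arrays, and the part of pituitary RNA in the other differences was not tested.

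The tissue label was checked against genes of cortical neurons. Slc17a7, a vesicular glutamate transporter of excitatory neurons, read 3483.9 on the Apoer2 KO array and 3496.5 on the WT array. Tbr1 and Cux2, transcription factors of deep and upper layers, read 403.1 and 362.4 on the Apoer2 KO array, against 360.8 and 282.4 on the WT array. Neurod6, from the same set of markers, read 469.7 against 515.2. Both arrays also held strong signals of genes that define cerebellar granule cells: Gabra6, a granule-cell GABA receptor subunit, read 2014.9 against 1797.0, and Cbln3, a granule-cell cerebellin, 1532.0 against 1593.4. The summed signal of 16 kept granule-cell genes was 16876 on the Apoer2 KO array and 17175 on the WT array. It was 13657 on the Vldlr KO array and 4535.5 to 6053.6 on the double KO, Dab1 KO and Reln KO arrays. Genes of Purkinje cells, also of the cerebellum, did not share this split and read strongly on all 6 arrays. Pcp2 read 2683.3 on the Apoer2 KO array and 2335.7 on the WT array, with 1828.5 to 2817.2 on the others. Car8 read 2076.7 against 2299.6, with 1262.1 to 2238.2 on the others. The hypothalamic peptide gene Oxt read 908.1 on the Apoer2 KO array and 759.9 on the WT array. The label frontal cortex thus does not cover all genes with strong signals here, and where these came from was not tested. The cortical layer and interneuron lists below share this limit. Array medians of 86.5 to 92.3 and Gapdh 5' to 3' signal ratios of 1.37 to 1.43 differed little among the 6 arrays.

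Few genes differed between the Apoer2 KO and WT arrays. Of the 11071 kept genes, 21 (0.19%) read at least 2-fold higher on the Apoer2 KO array and 21 (0.19%) at least 2-fold lower, together 0.379%. At 1.5-fold the counts were 131 (1.18%) higher and 130 (1.17%) lower, and 87.5% of genes lay within 1.25-fold of WT. The differences had a standard deviation over genes of 0.235, with 95% of genes between -0.48 and 0.44. Against the same WT array, 78 genes (0.705%) were 2-fold apart on the Vldlr KO array, 105 (0.948%) on the double KO array, 116 (1.05%) on the Dab1 KO array and 278 (2.51%) on the Reln KO array. Among these 5 mutants, the Apoer2 KO array thus had the fewest genes at this fold. These comparisons share the WT array. The arrays also differed in summed granule-cell signal, at 17175 on WT, 16876 on Apoer2 KO and 13657 on Vldlr KO. It was 4535.5 to 6053.6 on the other 3 arrays, and the part of this difference in the counts was not tested.

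**Figure D1:**
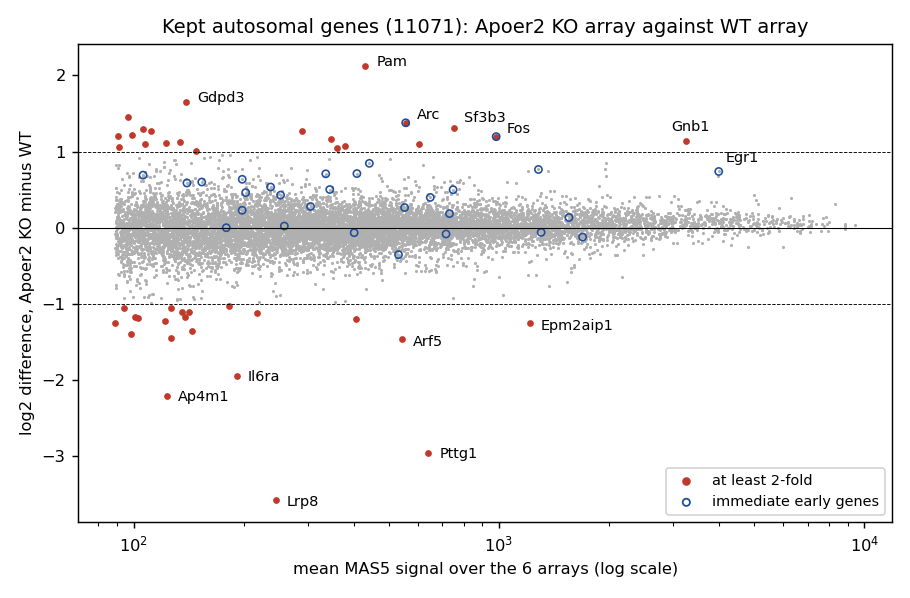
Each point is 1 of 11071 kept autosomal genes, with its mean MAS5 signal over the 6 arrays on a log axis and its log2 difference, Apoer2 KO minus WT, on the vertical axis. Red points are the 42 genes at least 2-fold apart (beyond the dashed lines), and blue rings mark the 29 kept immediate early genes, most of which lie above 0. Lrp8 and Pttg1 lie lowest and Pam highest.

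The genes past 2-fold were mostly dim. Of the 2768 genes with the lowest mean signals, up to 190.1, 25 were among the 42 (0.903%), while the 2768 brightest, above 760.4, held 3 (0.108%). On 3 of the 21 higher genes the WT array was below background, and on 2 of the 21 lower genes the Apoer2 KO array was. For 17 of the 42 genes only the Apoer2 KO array lay outside the range of the other 5 arrays, for 10 only the WT array did, for 7 both and for 8 neither. Over all kept genes the Apoer2 KO array lay outside in 24.5% and the WT array in 37.7%. Of the 11 genes with another probe set past the filter, 4 had at least 1 such probe set that was also 2-fold apart in the same direction, and 7 had none. Just inside the threshold were Hoxa9 at 1.01 and Zfp746 at -1.03, and just outside were Rpgrip1 at 0.995 and Trim45 at -0.991.

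The highest gene was Pam, the enzyme that amidates the C terminus of many neuropeptides. It read 826.3 on the Apoer2 KO array and 167.4 on the WT array, a log2 difference of 2.13. The double KO array read 975.2, and the Vldlr KO, Dab1 KO and Reln KO arrays read 163.7, 219.4 and 232.3. Both arrays lacking Apoer2 were high and the other 4 low. Pam and Lrp8 were the only kept genes at least 2-fold apart between these sets. How often other splits of the arrays part genes is not given here. Pam also amidates pituitary peptides. Gh read 3704.8 on the Apoer2 KO array and 13.1 on the double KO array, and the part of pituitary RNA in the Pam signal was not tested.

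Gnb1, the beta subunit of heterotrimeric G proteins, was high on both of its bright probe sets. The brightest read 4404.9 on the Apoer2 KO array and 1991.5 on the WT array, and the other read 1798.9 against 401.4. Signals on the Vldlr KO, double KO, Dab1 KO and Reln KO arrays were 1983.9, 3902.1, 4525.8 and 2700.4 for the brightest, so the Dab1 KO array, which retains Lrp8 signal, was as high. Eomes, a T-box transcription factor of neuronal progenitors and of olfactory bulb projection neurons, read 325.7 against 133.6, with 54.0 to 115.9 on the other arrays. Its dimmer probe set read 111.9 on the Apoer2 KO array against 33.2 on the WT array. Among the kept genes, Eomes had the widest gap, 1.13 log2, by which the Apoer2 KO array stood above all other arrays.

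Other genes of the 12 highest followed different patterns over the 6 arrays. For Cd33, a sialic acid-binding receptor of microglia, for Sf3b3, a subunit of the spliceosome's U2 particle, for Gm35161 and for Foxh1, a Smad partner in nodal signalling, the WT array was the lowest of all 6. Sf3b3, for example, read 828.0 on the Apoer2 KO array and 315.7 on the WT array, with 709.7 to 1004.2 on the other arrays, and its second probe set read 120.6 against 180.9, in the opposite direction. Cd33 read 92.0 on the Apoer2 KO array against 15.8, below background, on the WT array, and was at least 2.61-fold higher. Mif4gd, a partner of the histone mRNA binding protein, read 178.9 against 61.1, and there the Apoer2 KO array was the highest and the WT array the lowest.

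For Gdpd3, an enzyme that hydrolyses lysophospholipids, Zap70, a T-cell receptor kinase, Syde2 and A930005H10Rik, the Apoer2 KO and Vldlr KO arrays read high together and the double KO array low, and for Zap70 and Syde2 the Dab1 KO array was high as well. Gdpd3 read 232.7 on the Apoer2 KO array and 55.0 on the WT array, with 467.7 on the Vldlr KO array and 24.5 on the double KO array. Zap70 read 472.2 on the Apoer2 KO array against 179.4 on the WT array, with 460.1 on the Vldlr KO array and 59.9 on the double KO array. Its log2 difference from WT was 1.27 on this probe set, but 0.60 with the mean over all Zap70 probe sets. These genes did not separate the arrays by Apoer2. The remaining 2 of the 12, Arc and Fos, are described with the immediate early genes.

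After Lrp8, the lowest gene was Pttg1, which encodes securin, an inhibitor of the protease that separates sister chromatids. It read 206.3 on the Apoer2 KO array and 1788.9 on the WT array, a log2 difference of -2.96. The Vldlr KO, double KO and Reln KO arrays were also low, at 305.6, 226.4 and 291.2, and the Dab1 KO array read 1026.1. A second probe set read 32.5 on the Apoer2 KO array against 590.1 on the WT array. All 3 Pttg1 probe sets were thus lower on the Apoer2 KO array, and the WT array was the highest of the 6 on each.

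In other lower genes the Apoer2 KO array stood alone. Il6ra, the alpha subunit of the interleukin-6 receptor, read 39.3 on it, against 231.3 on the WT array and 211.9 to 227.5 on the other arrays. The 5 arrays other than Apoer2 KO lay close together, and the gap of 1.83 log2 below the nearest of them was the widest of any kept gene. A second Il6ra probe set, below the filter, read 44.1 against 17.7. Exosc9, a subunit of the RNA exosome, read 148.4 on the Apoer2 KO array and 378.2 on the WT array, with 416.6 to 532.1 on the other arrays. Cetn4, a centrin of ciliated cells, read 38.3 against 142.2, with 123.1 to 220.0 on the others. Exosc9 and Cetn4 lie 8 coding genes apart on chromosome 3. On this chromosome 2 genes were higher and 4 lower among 572 kept (1.05%), beside 0.379% over all autosomes. This was the highest share of the 19 autosomes, and the others ran from 0 to 0.708%. The pair was found by comparing the positions of all genes past 2-fold, as were Sf3b3 and Zfp1, 18 coding genes apart on chromosome 8. Whether position mattered was not tested. Epm2aip1, which encodes a partner of the glycogen phosphatase laforin, read 623.6 against 1525.2, with 1183.7 to 1410.1 elsewhere, but its 3 other probe sets differed by only -0.31 to -0.12.

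Ap4m1, a subunit of the AP-4 sorting adaptor, read 20.8 on the Apoer2 KO array, below background, and 197.6 on the WT array, at least 6.96-fold lower. It was also low on the Dab1 KO array, at 54.2. Arf5, a small GTPase of the Golgi, read 224.8 on the Apoer2 KO array and 666.8 on the WT array, below the 401.7 to 795.5 of the others. Smpd2, a neutral sphingomyelinase, read 58.8 against 210.1, and the Dab1 KO and Reln KO arrays were as low, at 66.3 and 42.4. Appbp2os, 4930571K23Rik and Scrt2, a neuronal zinc-finger repressor, completed the 12 lowest, with differences of -1.40, -1.25 and -1.22. For Scrt2 the difference was that of 1 probe set of a kind that can share sequence between transcripts. It was -0.14 on the brightest probe set of another kind and -0.32 over all Scrt2 probe sets.

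**Figure D2:**
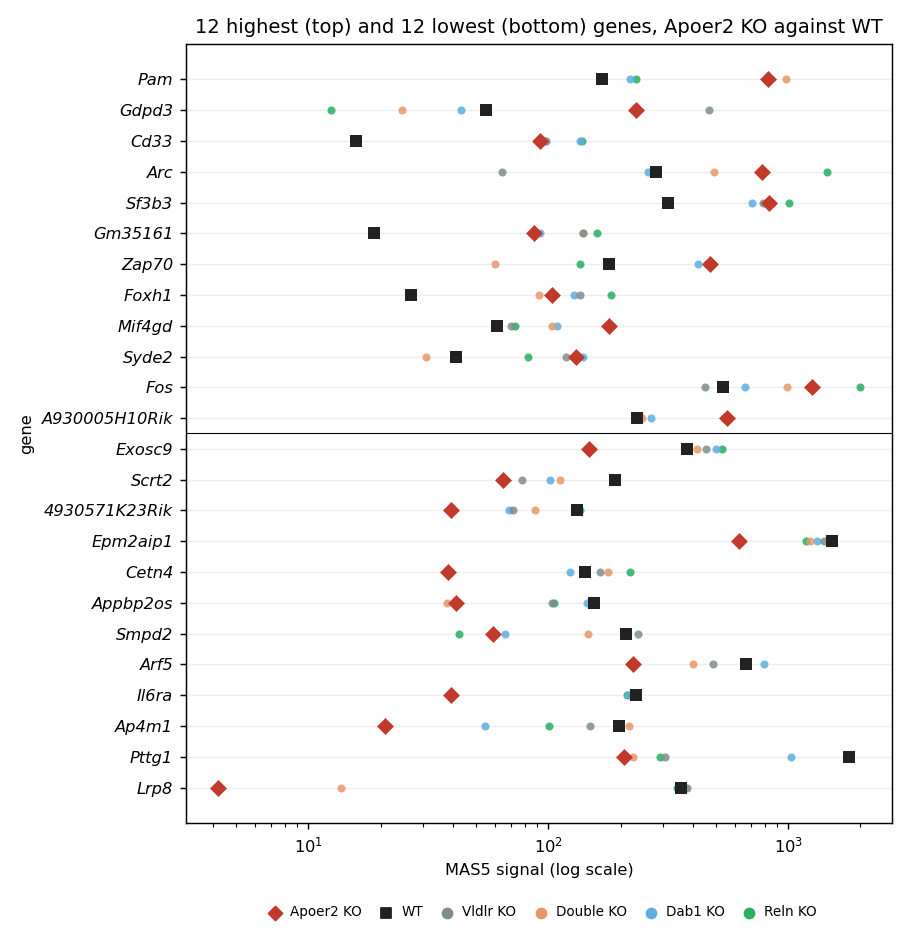
MAS5 signal on a log axis on all 6 arrays for the 12 highest (above the line) and 12 lowest (below it) kept genes, Apoer2 KO against WT, with red diamonds for the Apoer2 KO array, black squares for WT and dots for the other arrays. For Pam and Lrp8 the Apoer2 KO and double KO points lie apart from the other 4, whereas for Pttg1, Sf3b3 and Cd33 it is the WT square that lies at the end.

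The immediate early genes, transcribed within minutes of synaptic activity or stress, had the highest median of the 41 gene lists examined. Of 29 kept, 23 read higher on the Apoer2 KO array and 5 lower, with 1 equal, and the median difference was 0.46, beside 0.0059 over all kept genes. At least 2-fold higher were 2, and 11 were at least 1.5-fold higher, where 1.18% of all kept genes were. None was 1.5-fold lower, where 1.17% of all kept genes were. On 10 of the 29 the Apoer2 KO array was the highest of all 6, a position it held for 12.5% of kept genes. Sequences 250 bases upstream of the start site are shown for 4 of the members at least 1.5-fold higher, as RefSeq's GRCm38.p6 table gives them, because TGACG, the core of the cAMP response element, is a known element of activity-dependent promoters. These 4 were picked with their motifs known and are no sample of the list. Capitals mark TGACG on either strand, which reads CGTCA on the other.

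Fos (chr12:85473640-85473889, plus strand): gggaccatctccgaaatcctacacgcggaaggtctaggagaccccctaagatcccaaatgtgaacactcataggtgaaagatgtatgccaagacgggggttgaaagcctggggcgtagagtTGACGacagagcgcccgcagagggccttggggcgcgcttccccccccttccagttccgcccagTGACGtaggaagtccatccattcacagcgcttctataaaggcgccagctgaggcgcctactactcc
Egr4 (chr6:85513590-85513839, minus strand): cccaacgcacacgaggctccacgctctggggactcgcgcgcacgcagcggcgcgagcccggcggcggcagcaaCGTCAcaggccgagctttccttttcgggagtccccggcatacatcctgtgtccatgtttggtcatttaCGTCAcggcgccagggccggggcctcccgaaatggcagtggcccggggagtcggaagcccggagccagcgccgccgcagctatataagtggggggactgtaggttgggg
Nr4a1 (chr15:101266596-101266845, plus strand): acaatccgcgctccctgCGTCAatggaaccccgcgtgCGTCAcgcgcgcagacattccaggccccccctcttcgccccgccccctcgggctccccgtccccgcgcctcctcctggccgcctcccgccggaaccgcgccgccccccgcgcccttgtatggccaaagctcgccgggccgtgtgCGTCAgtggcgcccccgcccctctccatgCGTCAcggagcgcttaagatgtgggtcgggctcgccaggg
Junb (chr8:84978749-84978998, minus strand): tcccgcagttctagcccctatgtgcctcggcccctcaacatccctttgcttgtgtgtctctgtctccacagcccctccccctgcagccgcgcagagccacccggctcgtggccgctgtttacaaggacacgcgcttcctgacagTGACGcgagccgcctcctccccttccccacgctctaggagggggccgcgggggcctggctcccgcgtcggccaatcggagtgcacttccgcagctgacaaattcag

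TGACG or its complement was present in 19 of 35 listed promoters of immediate early genes (54.3%), standing for 16 of 23 genes, and in 17.8% of 32851 promoters of all genes. The full element TGACGTCA, which contains TGACG, was found in 5.71% and 1.55%. The motif GGGCGG, a GC box, was found in 60% and 32.7%. In the sequences shown, TGACG began 129 and 66 bases upstream of the start site of Fos, and CGTCA began 177 and 109 bases upstream of that of Egr4. Nr4a1 held 4 copies of CGTCA, and Junb held 1 copy of TGACG. Members that read close to WT held it too, with 3 copies in 1 of the promoters of Homer1, and 2 in that of Btg2. Btg2 held the full element, which reads the same on both strands and so contains both TGACG and CGTCA. There the full element is thus no site apart from these copies. A match describes the letters in this window and says nothing of a factor binding there.

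Arc, a postsynaptic protein that drives AMPA receptor removal, read 778.9 on the Apoer2 KO array and 282.4 on the WT array, a log2 difference of 1.38. The Vldlr KO, double KO, Dab1 KO and Reln KO arrays read 64.4, 489.9, 260.2 and 1454.8. Fos, a subunit of the AP-1 transcription factor, read 1262.4 against 535.0, with 449.0, 984.1, 662.7 and 1998.5 on the same other arrays, and differed by 1.20. For both genes the Reln KO array was the highest, the Apoer2 KO and double KO arrays came next, and the WT, Vldlr KO and Dab1 KO arrays were lower.

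The zinc-finger factor Egr1 read 5225.0 on the Apoer2 KO array and 3120.3 on the WT array, and 3504.0 to 4195.0 on the others. Egr4, of the same family, read 609.3 against 326.6, with 359.1 to 522.6 on the others. The nuclear receptor Nr4a3 read 694.7 against 413.5, with 216.1 to 490.1 on the others. These 3 were highest on the Apoer2 KO array, and so were Klf4, Nr4a2, Dusp5, Dusp6, Ier5, Fosl2 and Per1, with differences of 0.19 to 0.59. The orphan receptor Nr4a1 read 1519.3 on the Apoer2 KO array against 882.6 on the WT array (0.76), Junb, an AP-1 subunit, 396.1 against 231.6 (0.71), and Npas4, a neuron-specific activity factor, 156.2 against 93.5 (0.60).

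Not every activity-regulated gene followed. The neurotrophin gene Bdnf read 250.7 on the Apoer2 KO array and 246.5 on the WT array, and Ptgs2, the inducible cyclooxygenase, read 123.8 on both. Homer1, Btg2, Jun and Jund differed by -0.06 to -0.12. Nptx2, a secreted pentraxin of excitatory synapses, read 268.7 on the Apoer2 KO array and 351.2 on the WT array and was the lowest of all 6 arrays there. The same list also differed among the other arrays. Its summed signal was 22373 on the Apoer2 KO array and 16401 on the WT array, and between 15415 on the Vldlr KO array and 26218 on the Reln KO array.

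**Figure D3:**
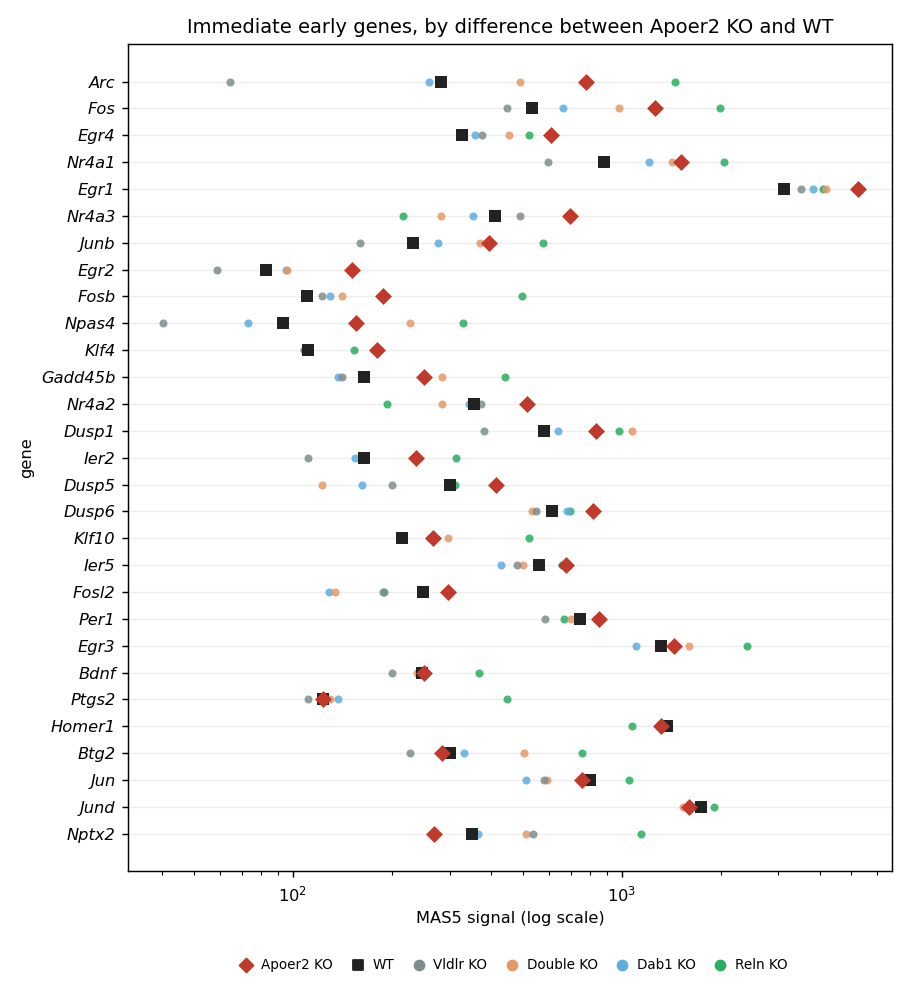
MAS5 signal on a log axis on each of the 6 arrays for the 29 kept immediate early genes, ordered from the largest difference between Apoer2 KO (red diamonds) and WT (black squares) at the top. The diamonds lie right of the squares in 23 genes, while the green Reln KO dots lie furthest right for Arc, Fos and Nr4a1.

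Glucocorticoid target genes, a list with 1 gene (Per1) in common with the immediate early list, had the next highest median. Of 16 kept, 15 were above 0 and none reached 2-fold, beside 51.4% and 0.379% of all kept genes. The median was 0.32. Sgk1, a kinase induced by glucocorticoids, read 2169.7 on the Apoer2 KO array and 1346.3 on the WT array, and Pdk4, a kinase that restrains pyruvate oxidation, 167.7 against 94.0. Fkbp5, a chaperone of the glucocorticoid receptor, read 668.9 against 517.7, with 489.3 on the Vldlr KO array and 1985.8 on the Reln KO array. Zbtb16 alone lay below 0, at -0.19. The Apoer2 KO array was the highest of the 6 for only 1 of these genes, Per1, and the summed signals were 21884 on the Apoer2 KO array and 17332 on the WT array, with 17962 to 30222 on the others. Against the mean of the other 5 arrays the median was -0.02.

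Among 17 kept genes of the circadian clock the median was 0.10, with 13 above 0. Per2, a repressor in the clock's feedback loop, read 429.2 on the Apoer2 KO array and 213.0 on the WT array, with 140.8 to 197.3 on the others. Bhlhe40, a clock-linked repressor, read 875.2 against 605.1. Both were highest on the Apoer2 KO array, and the hour of collection is not given in the sources used here. Npas2 and Arntl, activators of the clock, lay at -0.36 and -0.19. Heat shock and chaperone genes had a median of -0.04 over 18, but spread widely. Dnajb5, a co-chaperone, was at 0.60, and Cirbp, a cold-induced RNA-binding protein, at 0.59. Cryab, a small heat shock protein, was lower, at 730.0 on the Apoer2 KO array and 1409.5 on the WT array, and Bag3, an Hsp70 co-chaperone, lay at -0.52. For Cryab the WT array was the highest, as the other arrays read 506.3 to 636.4. For Cirbp the WT array was the lowest, at 537.0 against 823.8 on the Apoer2 KO array and 1196.8 to 1462.1 on the others.

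Ligands and partners of Apoer2 read near WT. Of 19 kept, 13 were above 0 and none reached 1.5-fold, beside 51.4% and 2.36% of all kept genes. The median was 0.09. Apoe, the lipid carrier for which the receptor is named, read 8819.4 on the Apoer2 KO array and 7112.5 on the WT array (0.31). Clu, another lipid-carrying ligand, read 4213.7 against 3446.1 (0.29), and Selenop, the selenium-transport protein, 4326.9 against 4011.9 (0.11). Thbs1, a matrix ligand of the receptor, had the highest difference, 0.38. Intracellular partners lay closer to 0, with the scaffold Mapk8ip1 at 0.09, Mapk8ip2 at -0.02 and the postsynaptic scaffold Dlg4 at -0.04. The lowest member was the NMDA receptor subunit Grin2b, at 765.1 against 894.0 (-0.22).

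Other LDL receptor family members did not differ by 1.5-fold, as 2.36% of all kept genes did. Besides Lrp8, 12 were kept, and their differences ran from -0.18 for Sorl1 to 0.27 for Lrp10. Lrp1, a large endocytic receptor, read 1775.4 on the Apoer2 KO array and 1688.4 on the WT array, and Sort1, a sorting receptor, 1589.1 against 1791.0. The 27 kept selenoprotein genes and genes of their synthesis had a median of 0.05. Of these, 15 were above 0 and none was 1.5-fold apart, beside 51.4% and 2.36% of all kept genes. Selenok, a protein of the endoplasmic reticulum, read 2733.0 against 2192.8 (0.31), but differed by 0.03 without probe sets that can share sequence. Gpx1, a glutathione peroxidase, read 858.3 against 1074.9 (-0.32), and Selenow 3911.3 against 4677.7 (-0.26). Scly lay at -0.31 and Eefsec at 0.31.

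Synaptic receptors were close to WT as well. The median was -0.01 over 16 NMDA receptor and scaffold genes and 0.04 over 10 AMPA and kainate receptor genes. It was 0.08 over 10 GABA-A receptor genes, and no member of these lists was at 1.5-fold. At that fold were 2.36% of all kept genes, so lists this small would hold few in any case. Cacng2, the AMPA receptor auxiliary subunit stargazin, read 774.7 on the Apoer2 KO array and 552.3 on the WT array, the highest of the 6. Gabra2, a GABA-A receptor alpha subunit, read 519.1 against 366.0, and Dlgap2, a postsynaptic scaffold, 110.0 against 154.3. Potassium channel genes had a median of -0.10, with 17 of 22 below 0. Hcn2, a pacemaker channel, was the lowest at -0.37, and Kcnj6, a G protein-gated channel, the highest at 0.55.

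Genes that mark the layers misplaced in reeler cortex differed little in level, and an array of the whole lobe carries no positions. Upper-layer genes had a median of 0.11 over 15, with Plxnd1 (0.36) and Cux2 (0.33) highest and Inhba (-0.43) and Kitl (-0.16) lowest. For 19 genes of deep layers and subplate the median was 0.13. The subplate gene Ccn2 read 574.1 on the Apoer2 KO array and 351.0 on the WT array (0.67), and the layer 6 gene Foxp2 278.9 against 390.5 (-0.45). Interneuron genes had a median of 0.08 over 24, in which Tac1, the substance P precursor, read 2041.0 against 1187.3, with the WT array the lowest of all. Ndnf, a marker of layer 1 interneurons, read 146.5 against 223.8.

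The oligodendrocyte, astrocyte and microglial lists had medians below 0. Of 18 kept oligodendrocyte and myelin genes, 15 were below 0 and none was at 1.5-fold, beside 48.5% and 2.36% of all kept genes. The median was -0.11. The direction turned with the comparison array: the median was 0.12 against the Vldlr KO array and 0.04 against the mean of the other 5 arrays, and the WT array had the highest mean log2 level of the 6, 10.79, with 10.67 on the Apoer2 KO array. Ermn, a cytoskeletal protein of late oligodendrocytes, read 518.9 on the Apoer2 KO array and 712.5 on the WT array, and Olig2, the lineage transcription factor, 475.2 against 608.0. Astrocyte genes had a median of -0.06 over 23, with Agt highest at 783.9 against 591.3 (0.39). The lowest was Aqp4, the astrocytic water channel, at 1207.7 against 1871.1 (-0.62). Microglial genes had a median of -0.09 over 14, with C1qc highest at 489.5 against 415.3 (0.22). The lowest was Fcrls, a microglial surface receptor, at 126.0 against 264.1 (-0.92). On the remaining 4 arrays Fcrls read 76.7 to 218.4, so the WT array was the highest. Against the mean of the other 5 arrays, the astrocyte and microglial medians were both 0.0. Cholesterol synthesis and sterol regulation genes had the lowest median of all lists, -0.15, with 18 of 24 below 0. Npc1, which moves cholesterol out of lysosomes, read 204.5 against 286.7 (-0.44), and Idi1, an isomerase of the pathway, 790.3 against 1059.9 (-0.41). Respiratory chain genes had a median of 0.07 over 22, with 18 above 0.

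Over the 41 lists the medians ran from -0.15 to 0.46, and 39 lay between -0.2 and 0.2. In 37 lists no kept member was 2-fold from WT. At that fold were 0.379% of all kept genes, so lists of this size would hold few in any case. The exceptions were the reelin pathway and LDL receptor family lists, through Lrp8, the immediate early list, through Arc and Fos, and the olfactory bulb list, through Eomes. The olfactory bulb list had a median of 0.18 over 10, and Cdhr1 (0.34) and Gng13 (0.33) were its next kept members. Its lowest was Omp, at 114.6 on the Apoer2 KO array and 132.9 on the WT array (-0.17). Against the Vldlr KO array the median of this list was -0.01. The 16 granule-cell genes had a median of -0.06, from 0.26 for Zic1 to -0.53 for Tmem266.

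**Figure D4:**
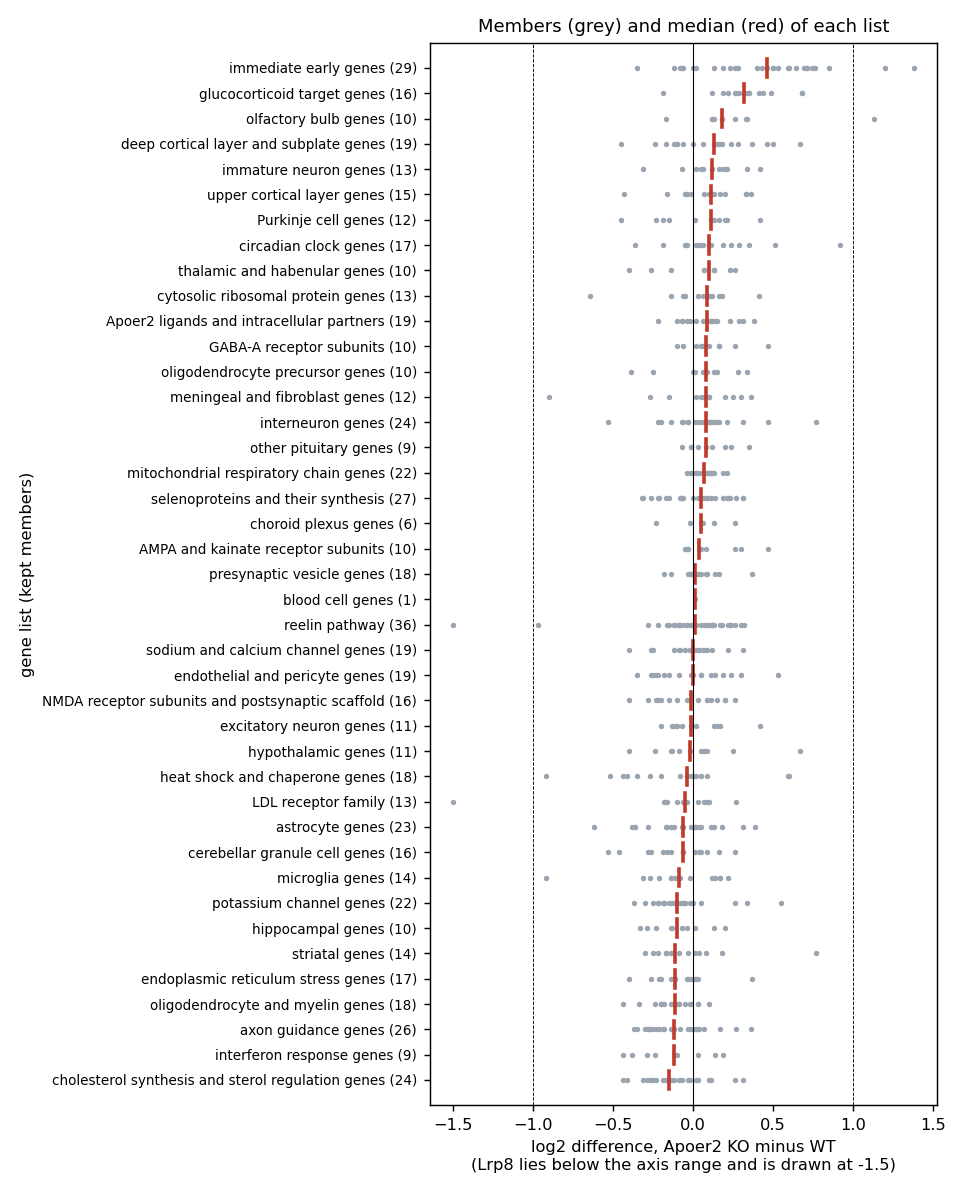
Log2 differences, Apoer2 KO minus WT, of the kept members of 41 gene lists (grey points), with each list's median as a red bar, its number of kept members in parentheses and dashed lines at 2-fold. The immediate early list is at the top with a median of 0.46 and the cholesterol list at the bottom with -0.15.

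Genes flanking Lrp8 on chromosome 4 were examined because a targeted locus on a mixed background can carry neighbouring DNA of the donor strain. Of the 20 kept neighbours, 10 on each side, 9 were above 0 and 11 below, with a median of -0.06. None was 2-fold apart and 1 was 1.5-fold apart, beside 0.379% and 2.36% of all kept genes. That gene, Pars2, a mitochondrial prolyl-tRNA synthetase, read 111.8 on the Apoer2 KO array and 194.9 on the WT array, and 202.4 on the double KO array. Mrpl37, a mitochondrial ribosomal protein, lay at -0.57, and Lrrc42 and Acot11 were the highest, at 0.46 and 0.25.

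**Figure D5:**
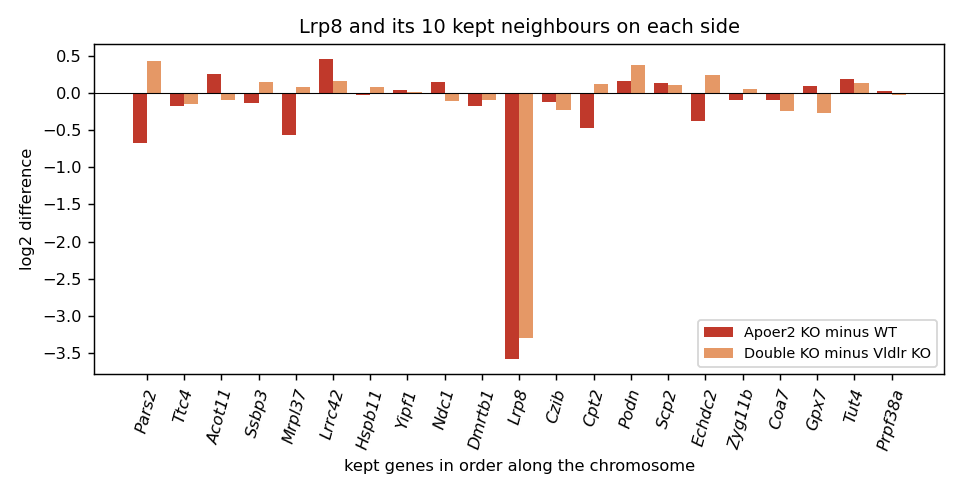
Log2 differences of Lrp8 and its 10 kept neighbours on each side, in order along the chromosome, with dark bars for Apoer2 KO minus WT and light bars for double KO minus Vldlr KO. Lrp8 alone is beyond 2-fold in both, at -3.58 and -3.29.

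A second pair of arrays, the double KO and the Vldlr KO, also differs by Apoer2 and shares no array with the first. Of the kept genes, 40 (0.361%) were at least 2-fold higher and 46 (0.415%) lower on the double KO array than on the Vldlr KO array, together 0.777%. In both pairs, 5 genes were 2-fold apart in the same direction, which is 11.9% of the 42 genes of the first pair and 5.81% of the 86 of the second. These were Lrp8, Pam, Arc, Fos and Appbp2os. Another 5 genes were 2-fold apart in opposite directions. Over all genes, which are not independent replicates, Pearson's r between the pairs' differences was 0.075, and 0.060 without Lrp8.

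Pam differed by 2.13 in the first pair and 2.39 in the second, and Lrp8 by -3.58 and -3.29. These were the 2 genes at least 2-fold apart on both arrays lacking Apoer2 from each of the other 4. Arc differed by 1.38 and 2.49 and Fos by 1.20 and 1.09, with the Reln KO array above both arrays lacking Apoer2. Among immediate early genes 21 of 29 were above 0 in the second pair, where 53.1% of all kept genes were, with a median of 0.23. Dusp1, a MAP kinase phosphatase, differed by 0.50 and 1.43, and Nr4a1 by 0.76 and 1.21, while Nr4a3 differed by 0.71 and -0.74. Glucocorticoid targets had medians of 0.32 and 0.34, myelin genes -0.11 and 0.24, and granule-cell genes -0.06 and -1.33. None of the 16 granule-cell genes was above 0 in the second pair, in which Gabra6 read 106.6 on the double KO array and 1247.6 on the Vldlr KO array.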

How the data were processed

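RNA from 1 frontal cortical lobe per mouse was amplified with a 3' IVT kit and hybridised to Affymetrix arrays, as described in the labels' protocols. Deposited values were MAS5 intensities on a linear scale, made by the authors with Affymetrix Expression Console, per the submitters' processing notes; no version or genome build is given in the sources used here. Each array's trimmed mean (2% off each end) was 249.4 or 249.5, and no rescaling was done. Of 45101 probe sets, 34958 name 1 gene in the platform annotation, 932 several and 9211 are unnamed here; 34754 were matched by gene ID to RefSeq's GRCm38.p6 table, which gave symbols and chromosomes.

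Differences are log2(signal + 28) on the brightest probe set of a gene, kept from a mean signal of 89 upwards, which is the median probe set. Sequence-sharing _x_at sets were used only where no other existed. The number of arrays, 1 per genotype, limits the precision, so counts at 2-fold and 1.5-fold replace tests. The calculation was tested on simulated data. Python 3.11.15, numpy 2.4.6, pandas 2.3.3 and matplotlib 3.10.9 were used.

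Named are the reelin receptor genes, the 12 highest and 12 lowest genes, the 2 highest and 2 lowest of a list, members 2-fold apart, and any immediate early, partner or LDL receptor family gene. Gnb1, Fkbp5, Selenow, Scly, Eefsec, Gng13, Cbln3, Pcp2 and Car8 were chosen after their values were seen. So were the genes at the edge of the threshold and those of the closing observations. Members and lists were chosen with earlier results of these data known. Alternatives varied the added constant, the filter, the normalization, the probe set and the comparison array.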

Additional observations from a re-analysis of the deposited data

Results flagged for a closer look

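For 5 of the 21 higher genes, the 2 pairs of arrays that differ by Apoer2 went opposite ways, each by at least 2-fold. The gap between the pairs' log2 differences (Apoer2 KO minus WT, less double KO minus Vldlr KO) was 4.89 for Gdpd3, 3.74 for Zap70, 2.85 for Zfp1, 2.52 for Syde2 and 2.21 for A930005H10Rik. With 1 array per genotype the gap was not tested. Each gap is that of the brightest probe set, and with the mean over all its probe sets Zap70 was not 2-fold from WT (0.60). In each of these genes the Apoer2 KO and Vldlr KO arrays read high and the double KO array low or near WT.

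Of the genes outside the comparison, 4 of 7 pituitary hormone genes and 3 Y-linked genes read higher on the Apoer2 KO array than on any other. Among hormone genes, Gh read 3704.8 against 20.4 on the WT array, Pomc 341.3 against 153.5, Prl 192.6 against 43.0 and Cga 109.5 against 8.6. The other hormone genes lay within the range of the other 5 arrays: Lhb read 111.0 against 92.6, Tshb 38.6 against 57.5 and Fshb 3.1 against 2.3. All 4 Gh probe sets were high, the dimmest at 1869.1 on the Apoer2 KO array and 1.5 on the WT array. Among Y-linked genes, Eif2s3y read 367.5 against 7.1, Uty 140.3 against 41.5 and Kdm5d 104.3 against 30.6. Xist read 124.9 on the Apoer2 KO array, below all other arrays, against 3498.1 on the WT array.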

How the results depend on the processing

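No paired analysis was possible because each genotype has 1 array and the labels give no replicate numbers to pair. Counts of genes past 2-fold depended on the added constant and the filter: 42 higher and 44 lower with a constant of 1, 7 and 7 with 89.4, 123 and 126 with no filter, and 9 and 4 with a mean signal of at least 297.5. For probe sets (40 and 49) the same settings gave 79 and 94, 16 and 16, 227 and 274, and 14 and 8. With the Vldlr KO array in place of WT, 48 genes and 102 probe sets were higher, and with the mean of the other 5 arrays 32 probe sets were lower. Of the 42 genes, 42 kept 2-fold with a constant of 1 and 15 with 89.4. A smaller constant can only widen a difference and a larger one only narrow it, so all 42 were bound to keep it. With the mean over all probe sets of a gene, 25 of the 34 with a value kept 2-fold. Without probe sets that can share sequence, 33 of 35 did. The count was 18 against Vldlr KO, 21 against the mean of WT and Vldlr KO and 14 against the mean of the other 5. Against Vldlr KO, 7 changed sign: Gdpd3 (-0.93), Cd33 (-0.07), Gm35161 (-0.55), Foxh1 (-0.30), 2810049E08Rik (-0.55), Zfp1 (-0.02) and Palld (0.48). Against the mean of the other 5, Gm35161 (-0.11) and 2810049E08Rik (-0.05) did. The cause was not tested. The immediate early median ran from 0.29 to 0.58 over all alternatives, the glucocorticoid one from -0.02 to 0.35, the myelin one from -0.14 to 0.12 and the cholesterol one from -0.17 to -0.06. Below background, signals set bounds only.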

Other observations

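Some genes short of 2-fold were set furthest apart from the other 5 arrays by the Apoer2 KO array. Cisd2, an iron-sulfur protein of the endoplasmic reticulum, read 509.0 on the Apoer2 KO array and 825.5 on the WT array, with 874.4 to 1075.8 on the others. Rbm45, an RNA-binding protein, read 412.0 against 230.0, with 82.7 to 241.7 on the others. Rif1, a regulator of replication timing, read 438.9 against 281.4, with 144.4 to 196.0 on the others. Galnt7, a glycosyltransferase of the Golgi, read 314.6 against 208.0, with 118.3 to 190.0 on the others. Choroid plexus genes had a median of 0.05 over 6 against WT, and Ttr, their main product, read 7609.9 on the Apoer2 KO array and 7724.2 on the WT array. The vasopressin gene Avp read 367.7 against 220.0, within the 160.9 to 557.9 of the others.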
